A study of Caenorhabditis elegans with 6 samples.

Results

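The nspa, nspb, nspc, nspd and nspe genes of Caenorhabditis elegans encode small peptides named for being specific to nematodes, and each letter is a family of related sequences. Members were the probe sets whose annotated gene symbols all began with nspa, nspb, nspc, nspd or nspe. This took 33 of the 22625 probe sets on the array: 2 for nspa, 7 for nspb, 9 for nspc, 10 for nspd and 5 for nspe. Together they read 47 of the 18217 annotated genes. Whole worms of the wild-type N2 (Bristol) strain, labelled as L4 larvae, were compared in 2 groups of 3 Affymetrix arrays each. Per the labels, the first group received the slow H2S donor GYY4137 at 100 uM, for 48 h in liquid and for 12 h on plates. The control group carries the same exposure text in its labels, so whether and how long controls were mock-treated is not stated there. The labels name no allele or transgene in either group.

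Many nematode peptide genes sit in tandem copies so alike that short array probes cannot separate them. Genes of the nspd family are known for expression in the male germ line, and hermaphrodites of this strain make sperm in the last larval stage before they switch to oocytes. No function is given here for the peptides of nspa, nspb, nspc or nspe. Of the 33 probe sets, 29 carry a suffix that Affymetrix gives to probe sets able to bind related transcripts, and 17 are annotated to several genes of 1 family. The 47 genes are therefore not separate measurements, and probe sets that share genes are not independent.

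Values are log2 expression after GCRMA, and a probe set was tested when it exceeded 4 on at least 3 of the 6 arrays, counting both groups together. Of the 33 members 22 passed: 1 of nspa, 4 of nspb, 9 of nspc, 8 of nspd and 0 of nspe. A probe set is called when limma's Benjamini-Hochberg adjusted p, taken over all 8053 tested probe sets, is under 0.05. One array, GYY4137 replicate 3, differed from the rest over all genes. On the first principal component, which held 65.9% of the variance, it lay at 40.2, and the other 5 arrays lay between -14.8 and 2.84. Results that lead the text are given with and without it.

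Of the 5 families, only nspb held called probe sets, and differences between families were not tested. All 7 nspb probe sets were lower on every GYY4137 array than on every control array, where 7.65% of all non-control probe sets showed this. The largest falls of all tested probe sets were on 3 nspb probe sets, and all 3 share nspb-2 and nspb-3. The tested nspa probe set was lower (0.511 of the control level) without being called. All 9 nspc and all 8 tested nspd probe sets averaged slightly higher without being called, and the nspe probe sets stayed near background on every array. Of the 22 tested members 4 were called, all nspb and all lowered, where 0.41% of all tested probe sets were called lowered and 1.09% raised. These 4 passed the floor through the control arrays, where they were high, so this count is a description. With no filter, 2 of the 7 nspb probe sets were called, where 0.0532% of probe sets were called lowered. In RNA of whole worms, fewer cells of a type and less RNA per cell cannot be told apart.

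**Figure D1:**
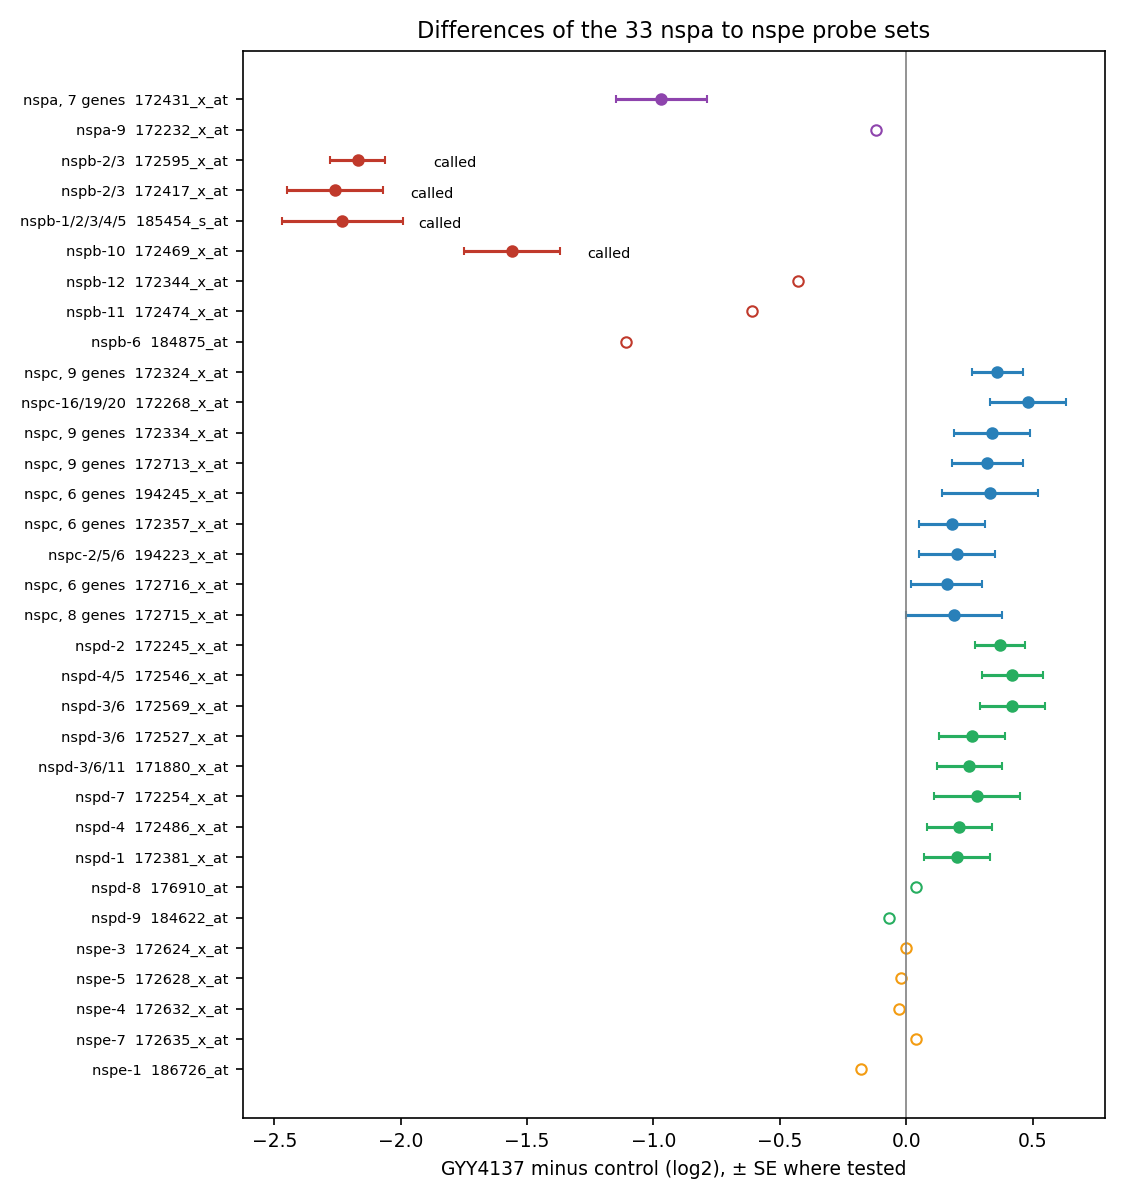
Difference of each of the 33 probe sets, GYY4137 minus control on the log2 scale, grouped by family from nspa at the top to nspe at the bottom. Filled points with bars are tested probe sets with their limma standard error, hollow points were not tested, and the 4 called probe sets are marked; nspb spans -2.26 to -0.43, while nspc spans 0.16 to 0.48.

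The nspb family was read by 7 probe sets covering 9 genes. The pair nspb-2 and nspb-3 was the only annotation of 2 probe sets, both with the suffix of probe sets able to bind related transcripts. On probe set 172595_x_at these genes had log2 values of 3.70, 3.90 and 3.77 on the GYY4137 arrays, against 5.93, 5.94 and 6.01 on the control arrays. The groups were 2.03 apart at their nearest, and the replicates of each group lay close together. The log2 value fell by 2.17, to 0.222 of the control level (SE 0.11, limma adjusted p = 0.000312), the second smallest p of the 8053 tested. On probe set 172417_x_at the same genes had 3.81, 3.92 and 4.51 after GYY4137, against 6.32, 6.44 and 6.26 in controls. GYY4137 replicate 3 was the highest of its group here, yet still 1.75 below the lowest control. The difference was -2.26 ± 0.19 (SE, adjusted p = 0.00434).

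A probe set shared by nspb-1, nspb-2, nspb-3, nspb-4 and nspb-5 had values of 3.15, 3.79 and 4.02 on the GYY4137 arrays, against 5.68, 5.83 and 6.13 on control arrays. GYY4137 replicate 1 was the lowest array, and the groups did not overlap. The difference was -2.23 ± 0.24 (SE, adjusted p = 0.00904). It shares its genes with the probe sets above and adds little that is separate from them. These 3 probe sets had the 3 lowest differences of all 8053 tested, at ranks 1, 2 and 3.

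A probe set for nspb-10, a gene elsewhere in the genome, gave 3.32, 3.74 and 4.01 after GYY4137, against 5.04, 5.28 and 5.43 in controls. All GYY4137 arrays again lay below all controls, by 1.04 at the nearest. The log2 value fell by 1.56, to 0.338 of the control level (SE 0.19, adjusted p = 0.0149), rank 12 from the bottom. Its suffix marks probe sets able to bind related transcripts, so which nspb genes gave the signal is not settled. Another probe set annotated to nspb-10, with nspb-7 and C01G12.13, was under the floor on all 6 arrays, with a difference of 0.01. It lay too low to show a fall.

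**Figure D2:**
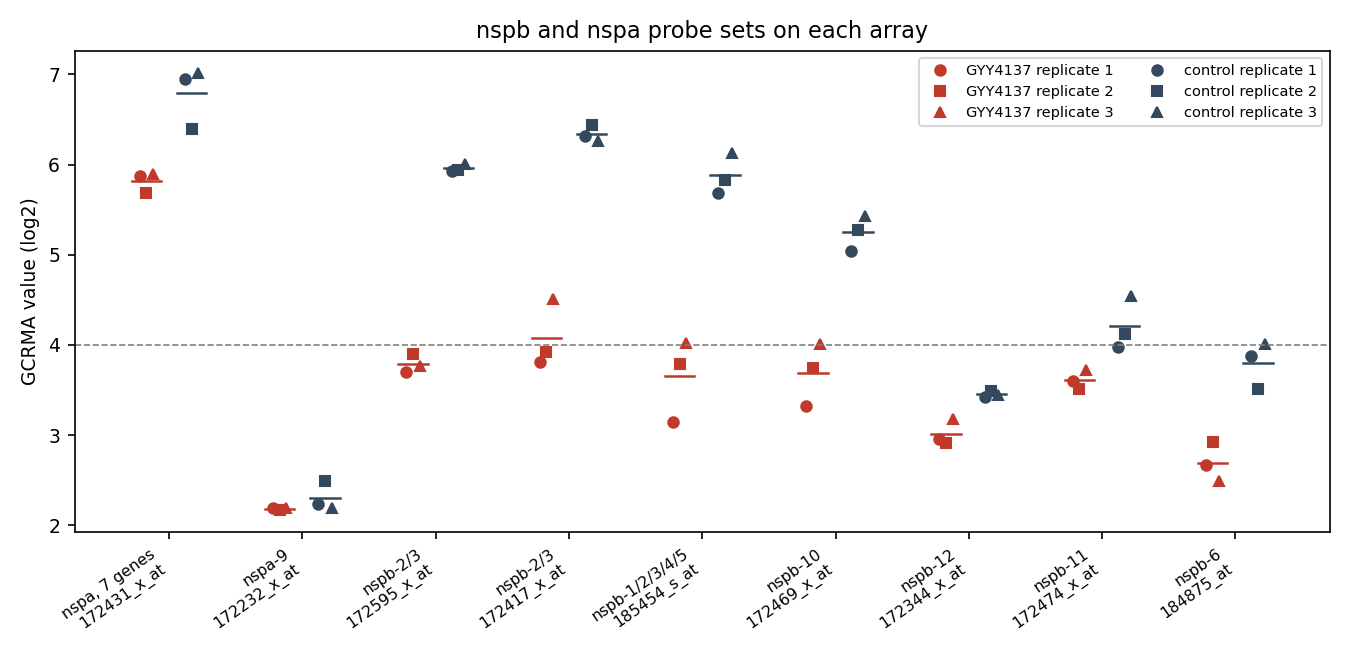
GCRMA value (log2) of the 2 nspa and 7 nspb probe sets on each array, with GYY4137 arrays in red at the left of each pair and control arrays in dark blue at the right. Marker shapes give the replicate, short lines are group means and the dashed line is the floor of 4; for every nspb probe set the red points lie below the dark blue ones.

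The other nspb probe sets lay at or near the floor and were not tested. Nspb-6 had 2.67, 2.92 and 2.49 on GYY4137 arrays, against 3.88, 3.51 and 4.01 on control arrays, a difference of -1.11. Nspb-11 had 3.60, 3.51 and 3.72 after GYY4137, against 3.98, 4.12 and 4.54 in controls, a difference of -0.61. Nspb-12 had 2.96, 2.91 and 3.18 after GYY4137, against 3.42, 3.49 and 3.45 in controls, a difference of -0.43. None of these 3 had overlapping groups, but values this low give no firm level. With all 22548 probe sets tested and no filter, their adjusted p-values were 0.129, 0.309 and 0.169.

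Over all 7 nspb probe sets the median difference was -1.56, beside 0.01 over all 22548 non-control probe sets, and 3 of the 7 share nspb-2 and nspb-3. Over the 4 probe sets of 1 gene the median was -0.86. These 4 are nspb-10 and the untested nspb-6, nspb-11 and nspb-12, which lay at or near the floor, so -0.86 is no firm size. Groups did not overlap in the lowered direction for 7 of the 7, where 7.65% of all non-control probe sets showed this. The 4 tested passed the floor through the 3 control arrays and at most 1 GYY4137 array. Admission this way favours probe sets that are lower after GYY4137, so their calls are a description. The 2 called with no filter were among the 3 that share nspb-2 and nspb-3, at limma adjusted p = 0.00185 on 172595_x_at and 0.0467 on 172417_x_at. With no filter the adjusted p was 0.0805 for the probe set of nspb-1 to nspb-5 and 0.0987 for nspb-10, neither called. GYY4137 means near the floor also leave the size of the falls uncertain.

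Nspb supplied 4 of the 33 lowered calls on the array, and 4 of the 22 calls lowered at least 2-fold, where 0.41% of all 8053 tested probe sets were called lowered. All 4 were admitted through the control arrays, and 3 of them share nspb-2 and nspb-3. With no filter, nspb supplied 2 of the 12 lowered calls. Both nspb-2 and nspb-3 probe sets kept their call with each of the 6 arrays left out in turn. Their differences ran from -2.23 to -2.13 on 172595_x_at and from -2.47 to -2.13 on 172417_x_at. These fits kept the probe sets tested with all 6 arrays, and 172595_x_at passed the floor on the 3 control arrays only. With a control array left out it would not have passed, so those calls rest in part on the array left out. The 5-gene probe set lost its call without control replicate 1, 2 or 3, although its difference stayed between -2.42 and -1.98. Nspb-10 lost its call without any control array or without GYY4137 replicate 2, with differences between -1.72 and -1.38. Without GYY4137 replicate 3 all 4 were called, where 1.69% of tested probe sets were then called lowered, and their adjusted p-values lay between 7.74e-06 and 0.000612.

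**Figure D3:**
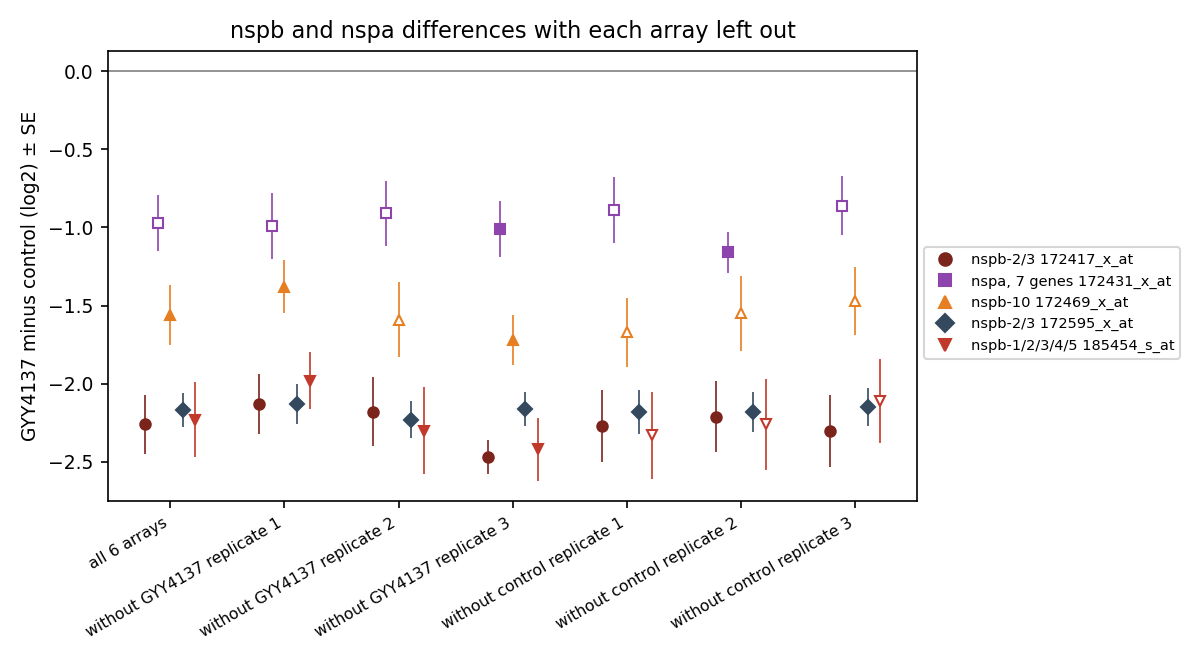
Difference, GYY4137 minus control on the log2 scale with its limma standard error, of the 4 tested nspb and 1 tested nspa probe sets with all 6 arrays and with each array left out. Filled symbols have an adjusted p under 0.05 and hollow ones do not; the nspb differences run from -2.47 to -1.38 and the nspa differences from -1.16 to -0.86.

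In the gene order of the WBcel235 assembly, nspb-1 to nspb-5 form a run with 2 other genes between them, and nspb-7 to nspb-10 form a second run with 3 others between. The genes in between share the place of the nspb genes and not their name. F38A5.6, in the first run, averaged 3.52 after GYY4137 and 3.45 in controls, under the floor. C01G12.3, in the second run, averaged 4.58 after GYY4137 and 4.45 in controls, a difference of 0.12 (adjusted p = 0.81). The third, cror-1, was also under the floor, at 2.63 after GYY4137 and 2.60 in controls. Groups overlapped for all 3, and the C01G12.3 difference was -0.16 without GYY4137 replicate 3, so no direction is read from these genes.

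The nspa family was read by 2 probe sets. The one that passed the floor is annotated to nspa-1, nspa-2, nspa-3, nspa-4, nspa-5, nspa-8 and nspa-12, most of which stand in 1 genomic run. Its values were 5.87, 5.69 and 5.90 on the GYY4137 arrays, against 6.95, 6.40 and 7.02 on the control arrays. The groups did not overlap, as for 15.6% of all tested probe sets in the lowered direction, and control replicate 2 was the lowest control. At -0.97 ± 0.18 (SE, adjusted p = 0.0522), 0.511 of the control level, the difference narrowly missed the threshold. It was above the floor on all 6 arrays, so unlike nspb its admission did not depend on either group. It was called without GYY4137 replicate 3 (-1.01, adjusted p = 0.0158) and without control replicate 2, and its adjusted p ranged up to 0.239 over the alternatives. The other probe set, for nspa-9, was near background, at 2.19, 2.17 and 2.19 after GYY4137, against 2.24, 2.49 and 2.19 in controls, and its groups overlapped.

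The nspc family was high on every array. Its 9 probe sets cover 15 genes that lie in 3 genomic runs, and all 9 are annotated to several nspc genes. The 9-gene annotation below means nspc-1, nspc-3, nspc-7, nspc-9, nspc-10, nspc-12, nspc-13, nspc-14 and nspc-15, and the 6-gene annotation means the last 6 of these. None of the 9 probe sets was called, and all 9 differences were above 0, from 0.16 to 0.48, with a median of 0.32 beside -0.04 over all tested probe sets.

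The largest nspc difference was read on the probe set for nspc-16, nspc-19 and nspc-20, a run apart from the others. It had 9.64, 9.95 and 10.18 on GYY4137 arrays, against 9.49, 9.46 and 9.39 on control arrays, a difference of 0.48 ± 0.15 (SE, adjusted p = 0.189). GYY4137 replicate 3 was the highest and GYY4137 replicate 1 was 0.15 above the nearest control. The smallest p was on 172324_x_at, with the 9-gene annotation, at 10.24, 10.14 and 10.26 after GYY4137, against 9.87, 9.81 and 9.86 in controls. Replicates were tight here and the groups 0.27 apart, at a difference of 0.36 ± 0.10 (adjusted p = 0.147).

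Of the other 9-gene probe sets, 172334_x_at had 10.15, 10.14 and 10.43 on GYY4137 arrays, against 9.68, 9.95 and 10.06 on control arrays (0.34 ± 0.15). Its companion 172713_x_at had 8.30, 8.26 and 8.54 after GYY4137, against 7.82, 8.14 and 8.18 in controls (0.32 ± 0.14). Groups were apart by 0.08 on each, less than the spread within a group. The 6-gene probe sets overlapped between groups. These were 194245_x_at, with 10.09, 10.02 and 10.42 after GYY4137, against 9.58, 10.19 and 9.77 in controls, and 172357_x_at, with 9.99, 10.08 and 10.31 after GYY4137, against 9.79, 10.04 and 10 in controls. The last of them, 172716_x_at, had 8.21, 8.22 and 8.47 after GYY4137, against 7.99, 8.11 and 8.32 in controls.

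Their differences were 0.33 ± 0.19, 0.18 ± 0.13 and 0.16 ± 0.14, so probe sets for the same 6 genes ranged from 0.16 to 0.33 on the same arrays. An 8-gene probe set, which lacks nspc-7, had 6.51, 6.79 and 7.12 on GYY4137 arrays, against 6.38, 6.68 and 6.81 on control arrays (0.19 ± 0.19). Nspc-2, nspc-5 and nspc-6 share a probe set that had 9.17, 9.45 and 9.66 after GYY4137, against 9.20, 9.17 and 9.32 in controls (0.20 ± 0.15). Both of these overlapped between groups. Groups were apart in the raised direction for 4 of the 9 nspc probe sets, where 13.4% of all tested probe sets were, and these 4 include 3 with the same 9 genes. GYY4137 replicate 3 was the highest of all 6 arrays on 9 of the 9. Without it the nspc median difference was 0.21 and 0 were called, where 3.04% of tested probe sets were then called raised. At an unadjusted p under 0.05, 3 of the 9 were higher with all arrays, as were 9.2% of all tested probe sets.

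Genes of the nspd family have been tied to sperm, and their probe sets were also well above the floor, apart from nspd-8 and nspd-9. None of the 8 tested was called, and 3 had an unadjusted p under 0.05, where 9.2% of all tested probe sets were higher at that p. All 8 differences were above 0, from 0.20 to 0.42, with a median of 0.27. The smallest p belonged to nspd-2, which had 8.34, 8.31 and 8.36 on GYY4137 arrays, against 7.92, 7.91 and 8.07 on control arrays. The groups were 0.25 apart, and the difference was 0.37 ± 0.10 (SE, adjusted p = 0.147). The probe set for nspd-4 and nspd-5 had 8.75, 8.81 and 8.62 after GYY4137, against 8.35, 8.14 and 8.45 in controls (0.42 ± 0.12, adjusted p = 0.169). A probe set for nspd-4 alone read 8.51, 8.63 and 8.47 after GYY4137, against 8.30, 8.17 and 8.51 in controls, and its groups overlapped (0.21 ± 0.13).

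Nspd-3 and nspd-6 are near neighbours in gene order and were read by 3 probe sets. On 172569_x_at they had 8.39, 8.34 and 8.43 on GYY4137 arrays, against 7.77, 7.93 and 8.19 on control arrays (0.42 ± 0.13). On 172527_x_at they had 8.52, 8.68 and 8.77 after GYY4137, against 8.24, 8.39 and 8.57 in controls (0.26 ± 0.13). Groups were apart on the first of these and overlapped on the second. A probe set that adds nspd-11 had 8.27, 8.54 and 8.54 after GYY4137, against 8.10, 8.14 and 8.36 in controls (0.25 ± 0.13), with overlap.

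Nspd-7 had 7.03, 7.08 and 6.91 on GYY4137 arrays, against 6.75, 6.41 and 7.02 on control arrays (0.28 ± 0.17). Nspd-1 had 8.19, 8.35 and 8.18 after GYY4137, against 8.0, 7.86 and 8.25 in controls (0.20 ± 0.13). In both, control replicate 3 reached into the range of the GYY4137 arrays. In all, groups were apart in the raised direction for 3 of the 8 tested nspd probe sets, where 13.4% of all tested probe sets were. Nspd-8 and nspd-9 stayed under the floor on all arrays, with differences of 0.04 and -0.07. Without GYY4137 replicate 3 the median of the 8 tested was 0.29 and again 0 were called.

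**Figure D4:**
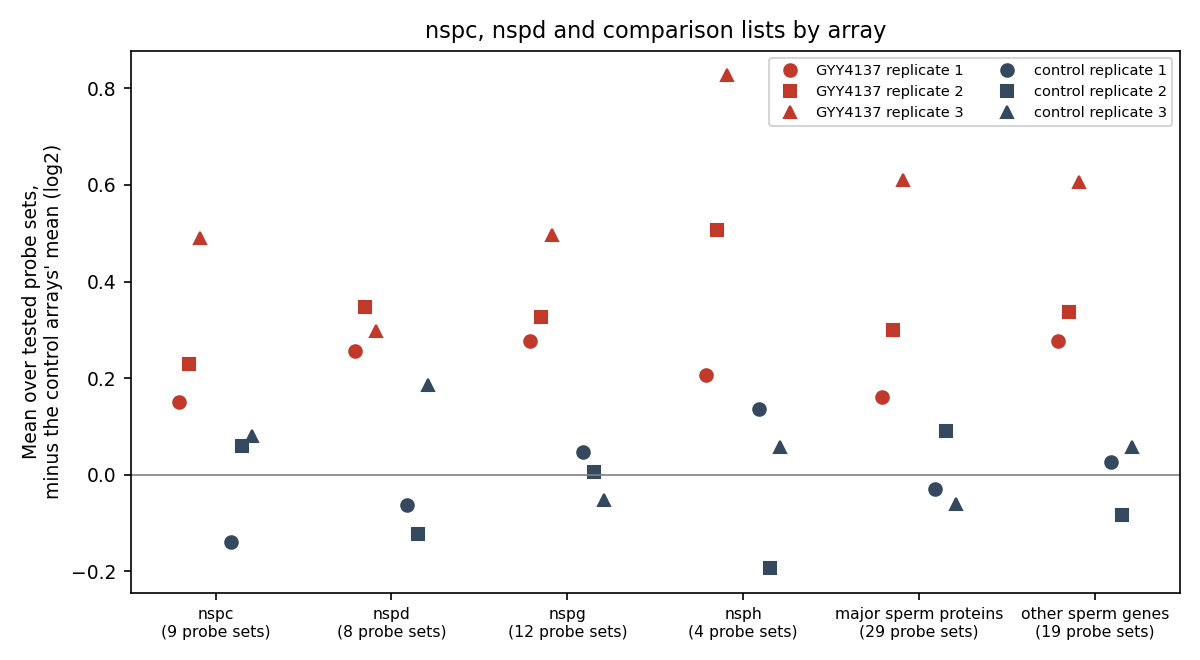
Mean over the tested probe sets of nspc, nspd, nspg, nsph, the major sperm proteins and other sperm genes on each array, minus the mean of the 3 control arrays (log2), with GYY4137 arrays in red at the left and control arrays in dark blue at the right. For nspc and both sperm lists GYY4137 replicate 3 is the highest array, while for nspd it lies between the other GYY4137 arrays.

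Sperm genes outside the nsp families were set beside nspd. Major sperm proteins, the abundant cytoskeletal proteins by which nematode sperm crawl, had 0 of 29 tested probe sets called, all 29 above control and a median difference of 0.31. Other sperm genes had 0 of 19 tested called, 16 above control and a median of 0.50. Over all 43 of their probe sets, 24 of them untested, the median was 0.04. Of the tested, 16 were above the floor on all control arrays. The probe set of ssp-32 and ssp-36 passed on the 3 GYY4137 arrays only, which favours higher values after GYY4137. Without GYY4137 replicate 3 the medians over tested probe sets were 0.21 for major sperm proteins and 0.32 for the others. Then 1 of 29 and 3 of 19 probe sets were called raised, where 3.04% of all tested probe sets were. The nspd mean was 8.25, 8.34 and 8.29 on the GYY4137 arrays, against 7.93, 7.87 and 8.18 on the control arrays. The major sperm protein mean was 10.96, 11.10 and 11.41 on the GYY4137 arrays, against 10.77, 10.89 and 10.74 on the control arrays. Both stood higher on each GYY4137 array than on any control, but GYY4137 replicate 3 was the highest array for the sperm proteins and not for nspd. The highest control was replicate 2 for the sperm proteins and replicate 3 for nspd. Whether nspd and the sperm genes differ in response was not tested.

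The nspg and nsph families, which also carry the nsp name, gave a further comparison. They had 0 of 16 tested probe sets called, all 16 above control, and a median difference of 0.44. Over all 24 of their probe sets, 8 of them untested, 22 lay above control and 2 below, with a median of 0.17. Without GYY4137 replicate 3 the median of the 16 tested was 0.37 and 3 of the 16 were called raised, where 3.04% of all tested probe sets were. Nspg-10 had the smallest p and was read by 2 probe sets, at 0.67 ± 0.15 and 0.60 ± 0.13 (SE, adjusted p = 0.0841 and 0.0845), and both were called without that array (adjusted p = 0.0247 and 0.0486). No tested probe set of nspc, nspd, nspg or nsph lay below control, while the 1 of nspa, not called, and the 4 of nspb did. The 4 of nspb passed the floor through the control arrays, which favours lower values after GYY4137. Differences between families were not tested.

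**Figure D5:**
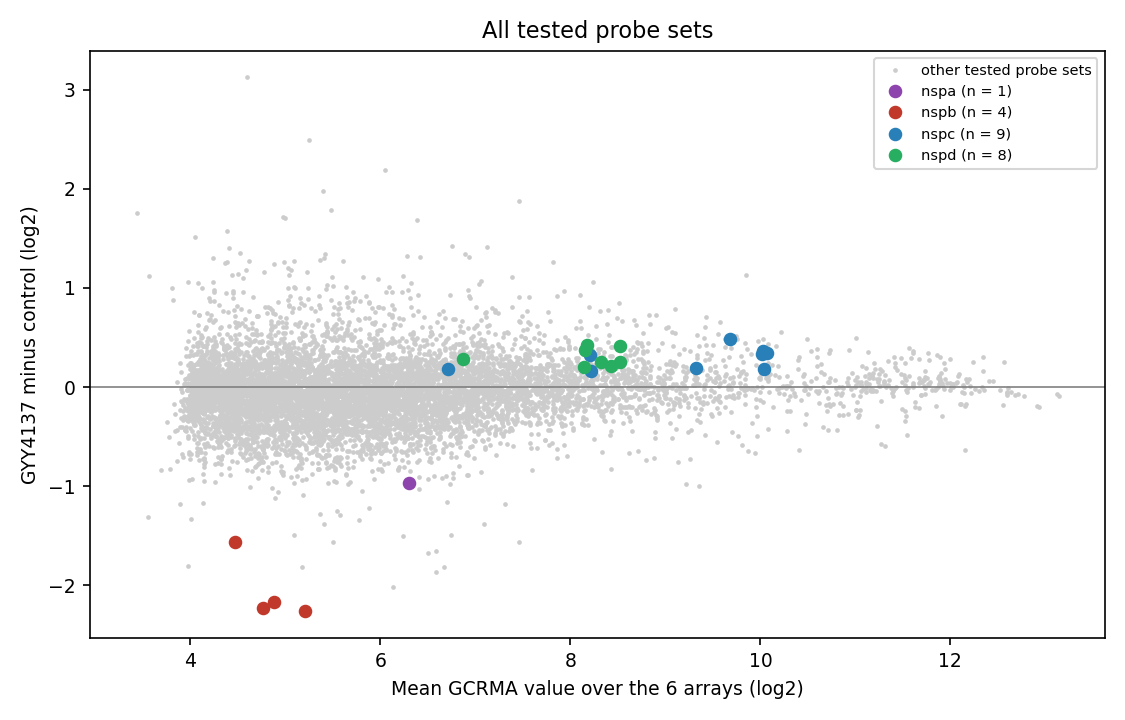
Difference, GYY4137 minus control (log2), against the mean GCRMA value over the 6 arrays (log2) for all 8053 tested probe sets in grey, with tested nspa, nspb, nspc and nspd probe sets in colour. The nspb points lie at the lower edge, down to -2.26, and the nspc and nspd points lie between 0.16 and 0.48 at higher values.

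The nspe family was read by 5 probe sets of 1 gene each, and its 8 genes in the WBcel235 gene order form 1 run with 1 other gene between. All 5 stayed under the floor on all 6 arrays, with values between 2.39 and 2.87. Nspe-7 had 2.76, 2.68 and 2.75 on GYY4137 arrays, against 2.67, 2.69 and 2.73 on control arrays. Nspe-4 had 2.57, 2.51 and 2.56 after GYY4137, against 2.52, 2.58 and 2.62 in controls. Both overlapped between groups. Nspe-1 had 2.47, 2.51 and 2.59 after GYY4137, against 2.61, 2.64 and 2.87 in controls, 0.01 apart at the nearest. Expression of nspe was not detectable at this signal, and no change can be read from these values.

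Marker lists for the tissues of a whole worm were set side by side in the same way, with no test over a list. Oocyte markers had all 10 tested probe sets below control, with a median difference of -0.34 and list means of 8.04 to 8.30 on GYY4137 arrays, against 8.51 to 8.56 on control arrays. Body muscle markers had all 6 below control (median -0.35, means 8.66 to 8.98 after GYY4137, against 9.03 to 9.26 in controls), and pharynx markers all 4 (median -0.17). Sperm markers, a list that includes major sperm protein genes and so overlaps the sperm lists above, had 9 of 10 tested above control (median 0.43). Hypodermis markers had 4 of 6 above control (median 0.24), 3 of 6 under median centring and 5 of 6 under quantile normalization. Without GYY4137 replicate 3 the sperm and hypodermis marker medians were 0.22 and 0.06. Intestine and neuron markers had medians of 0.02 and -0.05, and the intestine median was -0.01 under quantile normalization. All 10 oocyte probe sets were above the floor on every control array, although the labels give L4 larvae, a stage before oocytes are made in number. No marker probe set was called with all 6 arrays. Without GYY4137 replicate 3, 3 of 6 body muscle and 1 of 10 oocyte probe sets were called lowered, where 1.69% of all tested probe sets were, and the body muscle median was -0.45 and the oocyte median -0.27. Whether tissue shifts have a part in the nspa, nspb, nspc and nspd differences was not tested.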

How the data were processed

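RNA of whole worms was measured on 6 Affymetrix arrays, 3 per group. The authors deposited 1 log2 value per probe set and array, made with GCRMA per the submitters' processing notes. The log2 scale is read from the values, which run from 1.88 to 13.32, and no source used here gives the GCRMA version. The 77 Affymetrix controls were left out. Gene names came from the platform annotation, and all 47 member gene numbers matched a RefSeq gene table of assembly WBcel235, used only for names and gene order.

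Probe sets above 4 on 3 or more arrays, 8053 of 22548, were fitted as GYY4137 minus control with limma 3.58.1 in R 4.3.3 (lmFit, eBayes, two-sided, Benjamini-Hochberg over all tested). Each ± with a difference is the fit's standard error. The procedure was tested on simulated data. The families, lists and tests were chosen with earlier results of these data known. All tested members, called members, up to 3 members of families with fewer than 3 tested, and up to 4 members per comparison list could be named. Nspb-6, nspb-11, nspb-12, nspd-8, nspd-9 and the genes between family members were named to account for the family and its runs. A probe set annotated to nspb-7, nspb-10 and C01G12.13 was no member.

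Alternatives were a floor of 6 or none, array weights, a replicate block, an intensity trend, median centring or quantile normalization, probe sets of 1 gene only, and leaving out each array. Fits with an array left out kept the probe sets tested with all 6 arrays. The number of arrays limits the precision. The labels do not say that replicates were separate cultures. The p-values weigh each difference against the spread within the groups, and that spread can be technical.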

Additional observations from a re-analysis of the deposited data

How the results depend on the processing

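Over the alternatives, every tested nspa, nspb, nspc and nspd probe set kept the direction of its difference. Of 283 such values, 257 kept their side of the threshold, 17 became called and 9 lost the call. Over all probe sets, 121 were called at the main settings, 33 unfiltered, 80 at a floor of 6, 1389 with array weights, 73 with the replicate block, and 12 to 381 with each array left out. The nspb count of 4 was 2 unfiltered, 1 at a floor of 6, where 1 probe set was tested, and 2 to 4 with each array left out. The nspa probe set was called (count 1 in place of 0) with a floor of 6, median centring, an intensity trend, array weights and the replicate block, and 0 to 1 were called with each array left out. Array weights called 3 nspc and 6 nspd probe sets, and an intensity trend 1 of nspc. The weights gave GYY4137 replicate 3 a weight of 0.143. The nspb median of -1.56 was -0.86 and the nspa median of -0.55 was -0.12 over probe sets of 1 gene. For nspa this is nspa-9 alone, near background, and for nspb it includes nspb-6, nspb-11 and nspb-12, at or near the floor. The nspb median ran from -1.72 to -1.38 with each array left out. No nspc probe set has 1 gene, so that alternative gave no value there. The replicate block rests on numbers only: same-numbered arrays correlated in their deviations at 0.108, -0.016 and 0.051, so the numbers were not taken as pairs, and the block changed no nspb, nspc or nspd count. Quantile normalization and median centring put the median of all tested probe sets at -0.01 and -0.06, beside -0.04. Signal near the floor limits the nspb sizes and every nspe value.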

Other observations

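A probe set annotated to C01G12.13, nspb-7 and nspb-10 had 2.88, 2.80 and 2.87 on the GYY4137 arrays, against 2.82, 2.81 and 2.91 on the control arrays, under the floor of 4 on all 6. At such values it can show no fall, and nothing is read from it about nspb-10.

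Within nspd, control replicate 3 read higher than the other controls on each of the 8 tested probe sets, and the nspd mean on that array, 8.18, lay 0.07 below the lowest GYY4137 array at 8.25.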
